A study of Mus musculus with 6 samples.

Results

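The genes of 10 B cell transcription factors were followed in sorted mouse plasma cells: Pax5, Ebf1, Bach2, Bcl6, Spib, Ets1, Irf8, Id3, Foxo1 and Mef2b. They were chosen by symbol as factors that are silenced or reduced when a B cell becomes a plasma cell, and all 10 were found among the 24346 symbols of each library. RNA had been sequenced from 3 libraries of IgG1 plasma cells and 3 libraries of IgM plasma cells. Both groups came from congenically marked B1-8germ donor B cells, whose inserted heavy chain gene favours binding of the hapten NP, placed in C57BL/6J wild-type hosts. The hosts received NP-CGG, the hapten on a carrier protein, in alum, and on day 7 the donor plasma cells were sorted from the spleen by isotype. The groups share the donor allele, host strain, immunogen and time. They differ by the isotype of the sort, which was taken from the labels and was not checked here, because Ighm and Ighg1 were not analysed here. The sources used here do not give further sorting markers, the animals' age or whether animals were pooled or shared between libraries. The p-values therefore reflect variation among the sequenced libraries, which may be technical.

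A mature B cell is held in its state by a network of transcription factors. Pax5 and Ebf1 switch on the B cell programme, Bach2 and Bcl6 repress the plasma cell regulator gene Prdm1, and Spib, Ets1 and Irf8 oppose differentiation at several of the same steps. Plasma cell differentiation reverses this: Blimp-1, the product of Prdm1, represses Pax5, Bcl6, Spib and Id3, and Irf4 and Xbp1 carry the secretory programme.

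The 10 factors covered a wide range of levels. Mef2b stood highest, at a mean of 50.1 FPKM over the 6 libraries (fragments per kilobase of transcript, scaled to mapped depth). Ets1, Irf8 and Foxo1 followed at 13.5, 8.77 and 6.68 FPKM, and Id3 and Spib at 1.47 and 0.971 FPKM. Ebf1, Bcl6 and Bach2 averaged 0.457, 0.0935 and 0.00815 FPKM, and Pax5 was listed at 0 in all 6 libraries. In this order Mef2b lay above Ets1 in 6 of 6 libraries with no overlap of their ranges, and every other pair of neighbours overlapped. Foxo1 and Irf8 each led the other in 3 libraries. Between isotypes, the factor called different was Mef2b, which was higher in IgG1 cells, and Irf8 was lower in IgG1 cells by a margin that did not pass the threshold.

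**Figure D1:**
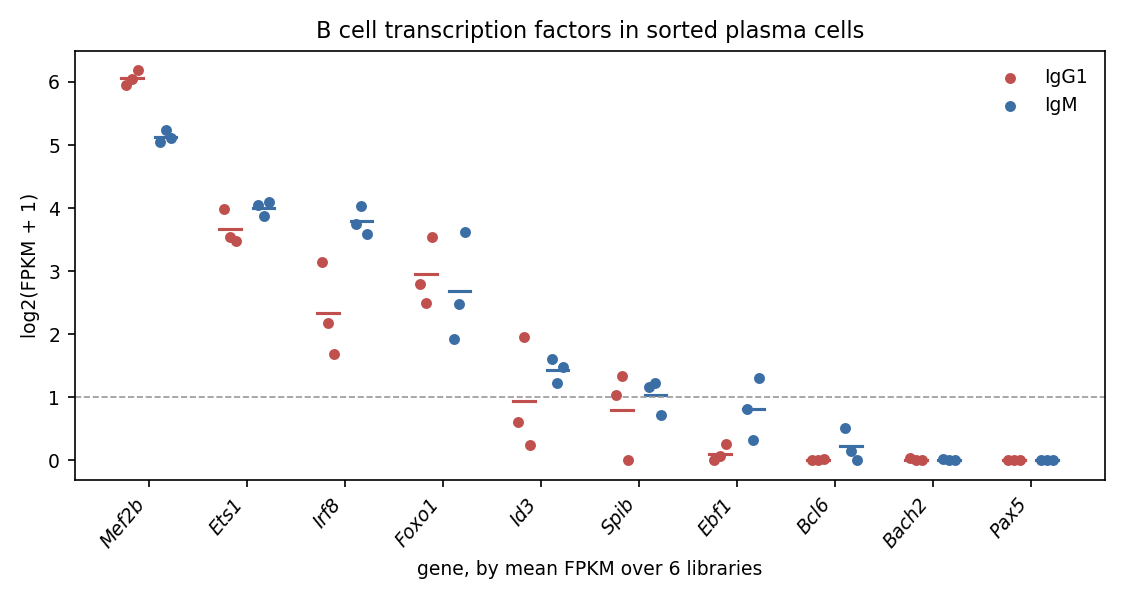
Level of each of the 10 factors as log2(FPKM + 1) in each library; points are libraries (IgG1 red and left, IgM blue and right), short lines are group means, and the dashed line marks 1 FPKM. Mef2b lies above 30 FPKM in every library with its groups apart, while Pax5, Bach2 and Bcl6 lie at or near 0 in both groups.

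The promoter windows of 2 germinal centre regulators are shown, Mef2b, the highest of the 10, and Bcl6, among the low ones. Each holds a match to a motif of a factor discussed here, as do the windows of Bach2 and Foxo1. The windows span annotated starts and come from RefSeq on GRCm38.p6, which had 12 windows for 9 of the 10 genes and none for Ets1. The Mef2b window lies at chr8:70152511-70152810 on the plus strand, and its capitals mark the octamer ATGCAAAT, which POU factors bind with the coactivator encoded by Pou2af1. The Bcl6 window is that of its second listed start, at chr16:23981234-23981533 on the minus strand. Its first capitals mark a BCL6 motif, TTCCTNGAA, and its second an ETS-IRF composite motif.
Mef2b: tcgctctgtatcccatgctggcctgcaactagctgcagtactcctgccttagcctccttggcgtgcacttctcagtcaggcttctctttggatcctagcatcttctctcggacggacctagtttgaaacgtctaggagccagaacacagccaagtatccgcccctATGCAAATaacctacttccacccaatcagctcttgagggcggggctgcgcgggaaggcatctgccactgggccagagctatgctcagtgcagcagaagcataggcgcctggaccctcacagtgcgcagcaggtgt
Bcl6: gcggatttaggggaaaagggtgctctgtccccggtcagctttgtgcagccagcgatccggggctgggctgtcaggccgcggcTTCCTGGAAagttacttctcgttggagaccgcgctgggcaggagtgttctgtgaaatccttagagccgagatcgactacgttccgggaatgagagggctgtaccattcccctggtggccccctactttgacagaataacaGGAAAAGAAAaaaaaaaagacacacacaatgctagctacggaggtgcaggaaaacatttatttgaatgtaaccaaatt

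Of 9 motifs searched on both strands, the octamer occurred in 1 of the 12 windows, that of Mef2b, beginning 85 bases before the start, and in 1.74% of all 32851 windows. The BCL6 motif occurred in 1 of the 12 and in 1.59% of all windows. The ETS-IRF composite occurred in 2, of Bach2 and Bcl6, and in 2.72% of all. A palindromic EBF motif was found in the Foxo1 window and in 0.904% of all windows. None of the 12 windows, which leave out Ets1, held the other 5: the Blimp-1 core GTGAAAG (4.24% of all windows), the ETS site AGGAAGT (9.35%), the MEF2 site (3.69%), the FOXO site TGTTTAC (3.65%) or the MAF-BACH site TGANTCA (7.81%). These matches describe letters in the windows, and no binding was measured.

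The libraries were of similar estimated size and differed in composition. The smallest step in FPKM times length, taken as 1 fragment, gave about 15300000 to 17900000 fragments per library. Between 12896 and 13481 symbols were listed at 0 in IgG1 libraries, against 12159 to 12560 in IgM libraries. Of 194 symbols of ribosomal proteins, the proteasome, complex I, RNA polymerase II and splicing, 3 were at 0 in all libraries, the paralogs Rpl10l, Rpl3l and Psma8. A 0 was thus rare among these widely used genes. Whether a 0 of a low gene such as Pax5 is a failure of the estimate was not tested. Expression also followed transcript length differently: the correlation of each library's deviations with length was -0.15, -0.18 and -0.24 (Spearman rho across genes) in IgG1 libraries 1 to 3, against 0.31, 0.15 and 0.29 in IgM libraries 1 to 3. The 8 plasma cell markers were present in every library, with summed levels of 36772 to 39346 FPKM in IgG1 and 44301 to 50167 FPKM in IgM libraries. Of 8 T cell markers 4, of 5 NK cell markers all 5 and of 6 erythroid markers 4 of the 5 found stayed under 1 FPKM everywhere. The highest T cell value was 2.88 FPKM, of Cd3d in IgG1 library 1. Of 10 mature B cell markers the 9 found summed to 302 to 364 FPKM in IgG1 and 281 to 342 FPKM in IgM libraries. Among them Cd37 averaged 186 FPKM in IgG1 and 148 FPKM in IgM cells, with overlap. Ltb averaged 15.5 FPKM in IgG1 and 8.25 FPKM in IgM cells, without overlap (limma adjusted p = 0.114). Of 8 markers used for plasmacytoid dendritic cells Siglech and Klk1 were at 0 in all 6 libraries and Ccr9 in 5. Their summed level was 1779 to 1861 FPKM in IgG1 and 1422 to 1502 FPKM in IgM libraries, most of it from Ly6d (1485 FPKM in IgG1 and 1112 FPKM in IgM cells, adjusted p = 0.0243) and Bst2 (310 FPKM in IgG1 and 328 FPKM in IgM cells). Tcf4 went the other way to Ly6d without overlap, at 15.4 FPKM in IgG1 and 23.6 FPKM in IgM cells (limma adjusted p = 0.175). Cox6a2 and Pacsin1 averaged under 1 FPKM in both groups and overlapped. The markers thus did not share a direction.

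Pax5, which encodes the factor that commits cells to the B lineage and maintains them there, was listed at 0 FPKM in all 3 IgG1 and all 3 IgM libraries. For a transcript of its median annotated length of 1228 nt (chromosome 4, 44524757 to 44710487, minus strand, GRCm38), 3 fragments would have given 0.137 to 0.16 FPKM. This limit applies if the listed 0 stands for a count of 0 fragments. Ebf1, the factor that acts with Pax5 in early B cells, had 0, 0.0508 and 0.197 FPKM in IgG1 libraries 1 to 3, against 0.764, 0.258 and 1.47 FPKM in IgM libraries 1 to 3. Every IgM value was above every IgG1 value. With at least 1 FPKM in 1 library, Ebf1 missed the requirement of 1 FPKM in at least 3 libraries for the test across genes. In the fit without that filter its log2 fold change was -0.71 (SE 0.27, limma adjusted p = 0.578). Of the 5835 symbols under the filter and above 0 somewhere, 5.24% were likewise lower in IgG1 with no overlap and 1.42% higher. The Ebf1 values correspond to about 0 to 11 fragments in IgG1 libraries and about 15 to 90 in IgM libraries.

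Genes that Pax5 or Ebf1 switch on in B cells were nevertheless abundant in part. Of 23 such genes 8 had at least 25 FPKM in all 6 libraries, and another 8 stayed under 5 FPKM in all 6. The first group included Cd79a and Cd79b (signalling chains of the B cell receptor), Blnk (an adaptor of that receptor), Ms4a1 (CD20), Fcrla and Pou2af1. Ms4a1 had 45.9, 66.4 and 59.7 FPKM in IgG1 libraries, against 61.1, 70.5 and 64.6 FPKM in IgM libraries, which overlapped. The low group included Cd22, Cd72, Cr2, Fcer2a, Ciita (the regulator of MHC class II genes) and Lef1.

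Between isotypes 16 of these 23 target genes could be tested, and 1 rose and 1 fell in IgG1 cells. Over all 9087 tested genes 4.26% rose and 1.76% fell. The median log2 fold change was -0.12, beside -0.05 over all tested genes. Some genes stand in more than 1 of the lists used here, so the counts of the lists are not independent. Cd79b rose, at 1378 ± 151 FPKM in IgG1 and 885 ± 68.9 FPKM in IgM cells (SD, n = 3 each; log2 fold change 0.64, SE 0.11, adjusted p = 0.00909). Pou2af1, which encodes the octamer coactivator OCA-B, fell to 268, 304 and 272 FPKM in IgG1 libraries, against 489, 491 and 442 FPKM in IgM libraries. Its log2 fold change was -0.75 (SE 0.11, adjusted p = 0.00474), and both calls held when any 1 library was left out. Over all 17 alternatives Cd79b was called in 14, with log2 fold changes of 0.28 to 0.71 and adjusted p up to 0.194, and Pou2af1 in 15, with adjusted p up to 0.139. Of 9 tested genes that Pax5 represses in B cells, 3 fell and 0 rose in the limma fit (all tested genes: 1.76% and 4.26%). At an unadjusted p under 0.05 the counts were 4 and 1, and the median was -0.36. The percentages over all tested genes are for adjusted p. Their share at an unadjusted p is not given here, so unadjusted counts, here and below, show no enrichment. The 3 were Prdm1, the costimulatory receptor gene Cd28 (-0.84, adjusted p = 0.0243) and the antibody joining chain gene Jchain (-0.77, adjusted p = 0.00389). The Cd28 call held in 3 of 6 fits with 1 library left out, and not with length and GC trends removed (-0.48, adjusted p = 0.224).

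**Figure D2:**
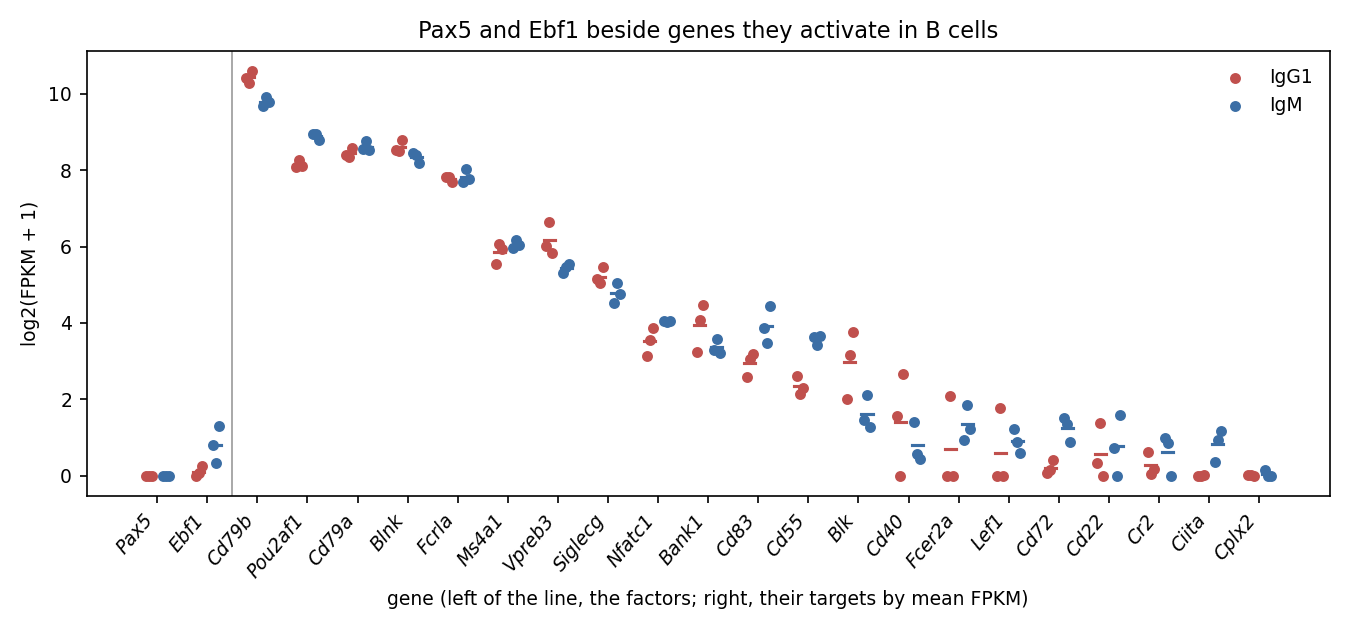
Levels of Pax5 and Ebf1 (left of the line) and of genes they activate in B cells (right, by falling mean), as log2(FPKM + 1) in each library; IgG1 is red and left, IgM blue and right, and short lines are group means. Cd79b, Pou2af1, Cd79a, Blnk and Fcrla lie near the top in every library while Pax5 is at 0 in all 6.

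Bach2 and Bcl6, which encode repressors of Prdm1, were close to absent. Bach2 had 0.0284, 0 and 0 FPKM in IgG1 libraries 1 to 3, against 0.0205, 0 and 0 FPKM in IgM libraries 1 to 3, or about 3.75 fragments in the highest IgG1 library and 2.82 in the highest IgM library. The isotypes could not be compared at this depth. Bcl6, the master regulator of germinal centre B cells, had 0, 0 and 0.0194 FPKM in IgG1 libraries and 0.431, 0.11 and 0 FPKM in IgM libraries. These values overlap at 0, and the highest IgM value rests on about 25 fragments. Without the filter the fit gave Bcl6 a log2 fold change of -0.21 (SE 0.14, limma adjusted p = 0.923). Of 8 germinal centre B cell markers 2, Gcnt3 among them, were at 0 everywhere and 5 stayed under 1 FPKM. Their summed level was 23.9 to 43.2 FPKM in IgG1 libraries and 20.6 to 23.0 FPKM in IgM libraries. Most of it came from the death receptor gene Fas and from S1pr2, which went in opposite directions, each without overlap. Fas was higher in IgG1 cells (log2 fold change 1.07, limma adjusted p = 0.0742) and S1pr2 lower (-0.47, limma adjusted p = 0.405). Basp1 was also higher in IgG1 cells without overlap (0.78, limma adjusted p = 0.326). The markers thus did not share a direction, and none of these differences passed the threshold.

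Bcl6 is best known for the genes it silences. Of 15 tested genes that Bcl6 represses, 2 fell and 0 rose in IgG1 cells in the limma fit (all tested genes: 1.76% and 4.26%). At an unadjusted p under 0.05 (no share over all genes given) the counts were 2 and 1, and the median was -0.21. The 2 called were Irf4 and Prdm1, which was also counted above among genes that Pax5 represses. Prdm1 had 25.9, 18.5 and 19.5 FPKM in IgG1 libraries, against 45.0, 35.8 and 52.0 FPKM in IgM libraries (log2 fold change -1.02, SE 0.22, adjusted p = 0.0222). Irf4 had 59.1, 55.2 and 51.8 FPKM in IgG1 libraries, against 96.7, 93.7 and 86.6 FPKM in IgM libraries (-0.73, SE 0.15, adjusted p = 0.0153). Neither gene overlapped between groups. With 1 library left out the calls held in 2 of 6 fits for Prdm1 (adjusted p up to 0.118) and in 4 of 6 for Irf4 (up to 0.0987). With length and GC trends removed neither passed (adjusted p = 0.0807 for Prdm1 and 0.156 for Irf4).

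Spib, Ets1 and Irf8 belong to the ETS and IRF families, whose members bind composite sites together. Spib, an ETS factor of B cells and plasmacytoid dendritic cells, had 1.05, 1.54 and 0 FPKM in IgG1 libraries 1 to 3, against 1.24, 1.35 and 0.65 FPKM in IgM libraries 1 to 3. The groups overlapped, and the log2 fold change was -0.24 (SE 0.49, adjusted p = 0.815). It turned to 0.15 without IgG1 library 3 and to 0.14 after quantile normalization. Ets1, whose loss in mice lets B cells become plasma cells more readily, was higher, at 14.8, 10.6 and 10.1 FPKM in IgG1 libraries, against 15.5, 13.7 and 16.1 FPKM in IgM libraries. IgG1 library 1 lay among the IgM values, and the difference did not pass the threshold (-0.34, SE 0.28, adjusted p = 0.518).

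Irf8, which in B cells partners with ETS factors and supports germinal centre genes, had 7.88, 3.55 and 2.23 FPKM in IgG1 libraries 1 to 3, against 12.4, 15.4 and 11.1 FPKM in IgM libraries 1 to 3. All 3 IgG1 values lay below all 3 IgM values, and library 1 was the highest of the IgG1 group. The means were 4.55 ± 2.96 FPKM in IgG1 and 13.0 ± 2.22 FPKM in IgM cells (SD, n = 3 each), 2.85-fold lower in IgG1. The log2 fold change of -1.45 (SE 0.41) had an unadjusted p of 0.0042 and an adjusted p of 0.0598 in limma. Without IgG1 library 1 it was -1.85 (adjusted p = 0.0226), and without IgG1 library 3 it was -1.13 (adjusted p = 0.131). The macrophage lysozyme gene Lyz2 was also high in IgG1 library 1, at 5.07, 0.16 and 0.309 FPKM in IgG1 libraries and 4.89, 4.77 and 8.44 FPKM in IgM libraries. The macrophage receptor gene Csf1r had 0, 0 and 0.0162 FPKM in IgG1 libraries and 2.14, 1.11 and 1.56 FPKM in IgM libraries, without overlap (limma adjusted p = 0.0861). Both genes were thus low in at least 2 of the 3 IgG1 libraries. Within IgG1, Ets1 (14.8 FPKM), Prdm1 (25.9 FPKM) and Irf4 (59.1 FPKM) were also highest in library 1. Over the 8 myeloid markers the summed level, most of it from the protease gene Ctss, was 276 to 405 FPKM in IgG1 and 357 to 474 FPKM in IgM libraries. Of these markers S100a8 was at 0 in all 6 libraries, while Cd14 and Adgre1 were each above 0 in 1. Itgam overlapped between groups, at 1.01, 0.0272 and 0 FPKM in IgG1 libraries and 1.06, 0 and 0.667 FPKM in IgM libraries. Fcgr3 stood out in IgG1 library 2 alone, at 0.0552, 1.31 and 0.0554 FPKM in IgG1 libraries and 0.0532, 0.052 and 0.0483 FPKM in IgM libraries. Its other values were all near 0 and almost level, although the groups did not overlap. Their part in the Irf8 values was not tested. Fewer cells with Irf8 and less Irf8 RNA per cell cannot be told apart in these bulk libraries.

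Among 24 tested relatives of the 10 factors, 1 (Mef2c) fell and 0 rose in IgG1 cells in the limma fit (all tested genes: 1.76% and 4.26%). At an unadjusted p under 0.05 (no share over all genes given) the counts were 3 and 2, and the median was -0.12. The ETS factor gene Spi1, which encodes PU.1, was well above its relative Spib in every library, at a mean of 55.5 FPKM in IgG1 and 37.6 FPKM in IgM cells (0.56, adjusted p = 0.155). Fli1 averaged 31.5 FPKM in IgG1 and 34.2 FPKM in IgM cells (-0.10, adjusted p = 0.85). Of the interferon regulatory factors, Irf5 averaged 58.1 FPKM in IgG1 and 41.1 FPKM in IgM cells (0.49, adjusted p = 0.187) and Irf1 28.7 FPKM in IgG1 and 30.0 FPKM in IgM cells (adjusted p = 0.993). Of these relatives 7 were listed at 0 everywhere, among them Pax1, Pax2, Pax3, Pax8, Ebf3 and Ebf4.

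Id3 and Foxo1 respond to signals through the B cell receptor and PI3 kinase. Id3, an inhibitor of E proteins and a known target of Blimp-1 repression, had 0.534, 2.88 and 0.18 FPKM in IgG1 libraries 1 to 3, against 2.06, 1.34 and 1.8 FPKM in IgM libraries 1 to 3. IgG1 library 2 was the highest of the 6 and the other 2 IgG1 libraries the lowest, so the spread within IgG1 exceeded the difference between groups (-0.51, SE 0.51, adjusted p = 0.619). The E protein gene Tcf3, a partner that Id3 restrains, averaged 80.6 FPKM in IgG1 and 85.5 FPKM in IgM cells (-0.09, adjusted p = 0.781). Foxo1, a forkhead factor that PI3 kinase signalling excludes from the nucleus, had 5.97, 4.67 and 10.7 FPKM in IgG1 libraries, against 2.82, 4.61 and 11.3 FPKM in IgM libraries. Library 3 was the highest in both groups, and the groups overlapped through their whole range (0.27, SE 0.48, adjusted p = 0.792). The sign turned to -0.10 without IgM library 1 and to -0.03 without IgG1 library 3.

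Of 11 tested Foxo1 target genes 1 fell and 0 rose in IgG1 cells in the limma fit (all tested genes: 1.76% and 4.26%). At an unadjusted p under 0.05 (no share over all genes given) the counts were 1 and 0, and the median was 0.00. The gene that fell was Bcl2l11, which encodes the death-promoting protein BIM, at 44.1, 53.3 and 37.7 FPKM in IgG1 libraries, against 102, 129 and 104 FPKM in IgM libraries (-1.30, adjusted p = 0.00389). Il7r, Rag1, Rag2 and Tcf7, which Foxo1 controls in other lymphocyte stages, were at 0 in all 6 libraries. Of 7 tested genes that Blimp-1 represses, Spib and Id3 included, none rose or fell in the limma fit (1 higher and 0 lower at an unadjusted p under 0.05), with a median of -0.24. The MHC class II editing genes H2-DMb2 and H2-Ob were the most abundant, at 126 ± 22.6 and 16.7 ± 4.39 FPKM in IgG1 cells, against 95.5 ± 19.0 and 19.9 ± 1.95 FPKM in IgM cells (SD, n = 3 each). Both overlapped between groups, with log2 fold changes of 0.41 (limma adjusted p = 0.21) for H2-DMb2 and -0.27 (limma adjusted p = 0.608) for H2-Ob.

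Mef2b, a MADS-box factor that in human germinal centre B cells activates BCL6, was the most abundant of the 10 and, of the 6 tested, the only one called between isotypes. It had 61.2, 65.1 and 71.8 FPKM in IgG1 libraries 1 to 3, against 32.0, 36.8 and 33.7 FPKM in IgM libraries 1 to 3. Every IgG1 library lay above every IgM library, 1.93-fold higher in the mean (66.0 ± 5.33 FPKM in IgG1 and 34.2 ± 2.46 FPKM in IgM cells, SD, n = 3 each). The log2 fold change was 0.93 (SE 0.17, limma adjusted p = 0.0103). Of the 6 factors that passed the filter 1 was thus called higher, where 4.26% of the 9087 tested genes were, and 0 lower, where 1.76% were (6.02% in either direction). At an unadjusted p under 0.05, 1 of the 6 was lower, Irf8, and the share of all tested genes at that threshold is not given here. Groups did not overlap for 2 of the 6, Mef2b and Irf8, and for 27.2% of all tested genes (13.7% higher and 13.5% lower). The other 4 factors, Pax5, Ebf1, Bach2 and Bcl6, did not pass the filter.

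**Figure D3:**
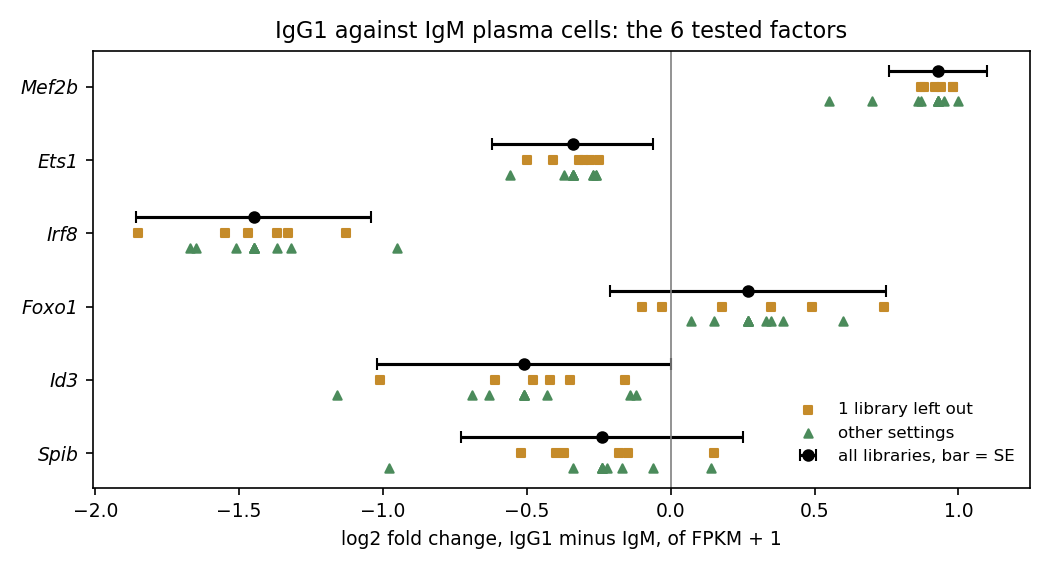
Log2 fold change, IgG1 minus IgM of FPKM + 1, of the 6 factors that passed the filter; black points are the fit to all libraries with SE bars, squares the fits with 1 library left out and triangles the other settings. Mef2b stays above 0 and Irf8, Ets1 and Id3 below 0 under every setting tried, while Spib and Foxo1 cross 0.

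The size of the Mef2b difference depended on the length and GC trend of the libraries. Mef2b lies on chromosome 8 from 70139711 to 70167488 (plus strand, GRCm38), with a median transcript of 1312 nt and a GC content of 64.1%. With each library's trend in length and GC content removed, its log2 fold change was 0.55 (SE 0.16, adjusted p = 0.084), and over the 6 fits without 1 library it ranged from 0.87 to 0.98, with an adjusted p of 0.0613 without IgM library 1 and under 0.05 in the other 5. Of its 5 basic GENCODE transcripts 1 shares exons with the upstream gene Borcs8, which the files name 2310045N01Rik and which encodes a lysosomal trafficking subunit. That Mef2b transcript starts at 70139711, outside the promoter window shown above, and its start was not searched for motifs. 2310045N01Rik had 39.1, 44.1 and 64.7 FPKM in IgG1 libraries, against 25.3, 36.6 and 33.5 FPKM in IgM libraries (0.60, SE 0.23, adjusted p = 0.148). The log2 ratio of Mef2b to it within a library, a comparison chosen after the values were seen, was 0.44 ± 0.26 in IgG1 and 0.11 ± 0.18 in IgM libraries (SD, n = 3 each; two-sided exact permutation p = 0.2, where 0.1 is the smallest possible). How reads were divided between the overlapping genes was not tested.

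Of the other MEF2 family genes, Mef2c was called, in the opposite direction to Mef2b. Mef2c, which in B cells supports proliferation after receptor signals, fell to 17.2, 17.2 and 16.5 FPKM in IgG1 libraries, against 35.9, 28.3 and 36.5 FPKM in IgM libraries. Its log2 fold change was -0.93 (SE 0.21, adjusted p = 0.0274), and -0.62 (adjusted p = 0.139) with the length and GC trend removed. It was called in 2 of the 6 fits with 1 library left out. Mef2d averaged 26.8 FPKM in IgG1 and 19.0 FPKM in IgM cells (0.51, adjusted p = 0.266) and Mef2a 5.34 FPKM in IgG1 and 8.87 FPKM in IgM cells (-0.70, adjusted p = 0.34). The log2 ratio of Mef2b to Mef2c was 1.77, 1.86 and 2.05 in IgG1 libraries, against -0.16, 0.37 and -0.11 in IgM libraries (two-sided exact permutation p = 0.1, the smallest possible). This ratio was chosen after the values were seen.

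Among 23 tested partners and co-regulators of the 10 factors, 3 fell and 0 rose in IgG1 cells in the limma fit (all tested genes: 1.76% and 4.26%). At an unadjusted p under 0.05 (no share over all genes given) the counts were 6 and 3, and the median was -0.11. Besides Pou2af1, also counted above, the 3 called were Ikzf3, which encodes the B lineage zinc finger factor Aiolos, and Hdac9, a deacetylase that binds MEF2 factors. Ikzf3 had 16.8, 19.9 and 11.3 FPKM in IgG1 libraries, against 42.1, 34.3 and 39.3 FPKM in IgM libraries (-1.25, SE 0.25, adjusted p = 0.0143), a call that held in 4 of 6 fits with 1 library left out (adjusted p up to 0.0946). Hdac9 had 0.0141, 1.3 and 1.81 FPKM in IgG1 libraries, against 7.46, 4.44 and 5.61 FPKM in IgM libraries (-1.85, SE 0.48, adjusted p = 0.0443), a call that did not hold in any of the 6 fits with 1 library left out, where adjusted p reached 0.214.

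**Figure D4:**
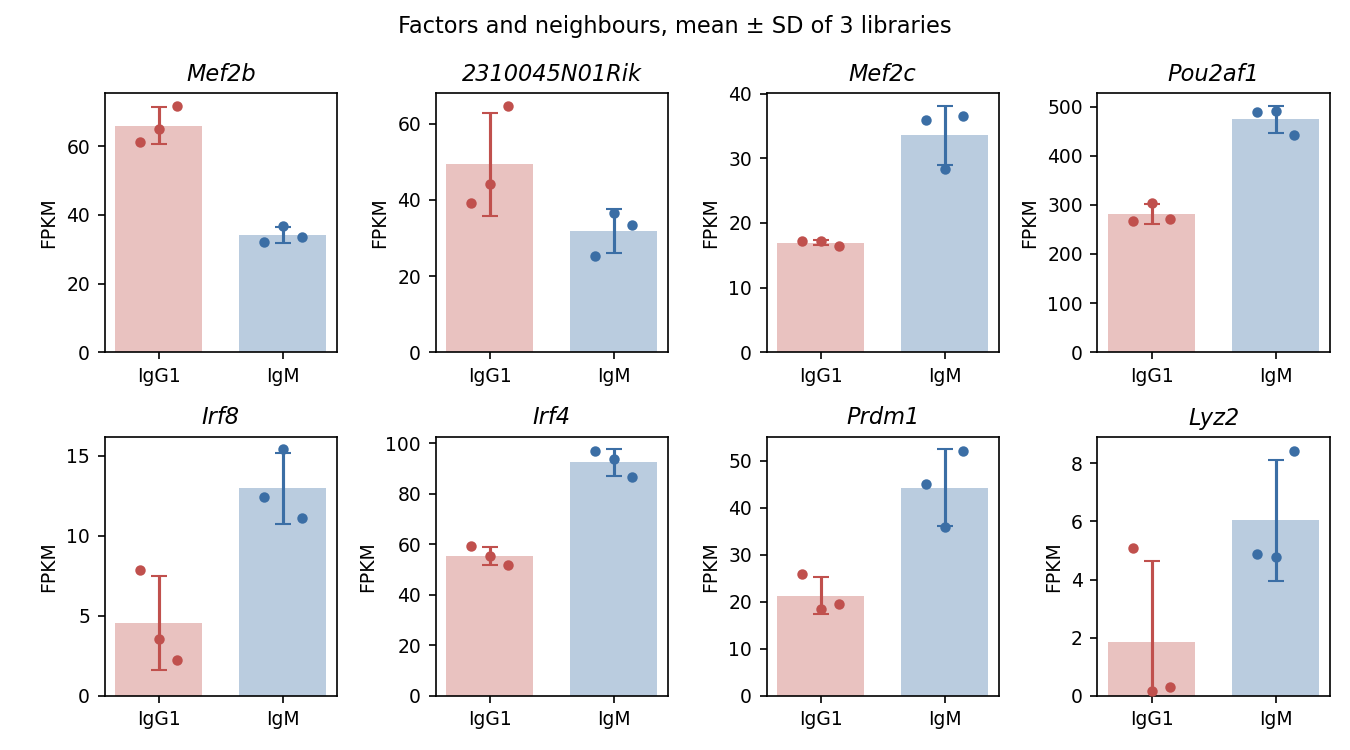
FPKM of Mef2b, its exon-sharing neighbour 2310045N01Rik (Borcs8), its relative Mef2c, the octamer coactivator gene Pou2af1, Irf8, Irf4, Prdm1 and the myeloid gene Lyz2; points are libraries, bars means and error bars SD, with IgG1 left and IgM right. Mef2b is higher in IgG1 while Mef2c, Pou2af1, Irf8, Irf4 and Prdm1 are lower. Within IgG1, Irf8, Irf4, Prdm1 and Lyz2 are each highest in library 1.

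Genes listed here as plasma cell factors opposed to this network covered a wide range of levels, with Xbp1 at the high end. At the low end was Id2, also listed among the relatives of the factors, at 4.6 FPKM in IgG1 and 5.01 FPKM in IgM cells. Of the 6 genes in this list, all tested, 2 fell and 0 rose in IgG1 cells in the limma fit (all tested genes: 1.76% and 4.26%). The 2 were again Prdm1 and Irf4, counted above. At an unadjusted p under 0.05 (no share over all genes given) the counts were 3 and 1, and the median was -0.41. Xbp1, the regulator of secretory capacity, had 6614, 6432 and 6862 FPKM in IgG1 libraries, against 5365, 6021 and 5354 FPKM in IgM libraries (0.25, adjusted p = 0.136). The log2 ratio of a B cell factor to its antagonist was compared within libraries for 6 pairs. For Irf8 to Irf4 it was -2.76, -3.63 and -4.03 in IgG1 libraries, against -2.87, -2.53 and -2.86 in IgM libraries (exact permutation p = 0.3, two-sided). For Spib to Prdm1 it averaged -3.67 ± 0.71 in IgG1 and -4.45 ± 0.52 in IgM libraries (SD, n = 3 each; exact permutation p = 0.2). This difference of 0.78 was 0.07 with a pseudocount of 0.1 and 0.41 without IgG1 library 2. For Pax5, Bach2 and Bcl6 to Prdm1 and for Bcl6 to Irf4 the ratio did not overlap between groups (exact permutation p = 0.1 each, the smallest possible; 0.15 after adjustment over the 6 pairs). With Pax5 and Bach2 at or near 0, these differences of 1.02 and 1.02 are those of Prdm1 alone. The Bcl6 ratios likewise rest on the pseudocount, since Bcl6 was at 0 or about 1 fragment in IgG1 libraries. Their differences of 0.81 to Prdm1 and 0.52 to Irf4 turned to -0.02 and -0.34 with a pseudocount of 0.1.

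The tested genes whose log2 levels over the 6 libraries were most like a factor's were listed as a description. For Irf8 they were Man2b1, Setdb1 and Creg1 (Pearson r of 0.999, 0.992 and 0.992), and 244 of 6307 candidate genes reached 0.9. For Mef2b they were Ndufa12, Prdx2 and Fads3 (0.997 each), with 510 genes at 0.9 or above. For Ets1 they were Anp32e, Slc19a1 and Tmod3 (0.999, 0.993 and 0.993), for Spib Pnrc2, Faap20 and Dnajb9 (0.989, 0.981 and 0.979), for Id3 Slc31a1, Gpatch4 and Cnep1r1 (0.992, 0.989 and 0.985), and for Foxo1 Stoml2, Clybl and Deaf1 (0.977, 0.973 and 0.957). With 6 points that share library and composition, many genes reach such values.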

How the data were processed

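RNA was measured in 6 libraries of sorted splenic plasma cells, 3 IgG1 and 3 IgM. A miRNeasy Micro kit was used for RNA, SMART-Seq HT for full-length cDNA and Nextera XT for libraries, per the labels' protocols. Build mm10, Cuffdiff, Cufflinks 2.2.1, TopHat2 2.1.1 and Bowtie2 2.3.5.1 are named, per the submitters' processing notes. The authors deposited 1 FPKM value per symbol and library, per the file headers. Neither the gene annotation nor any library scaling is stated in the sources used here. FPKM divides by length and depth, so composition and length coverage move it.

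FPKM were used as deposited. Genes with at least 1 FPKM in at least 3 of 6 libraries (9087) were tested on log2(FPKM + 1) with limma 3.58.1 in R 4.3.3 (intensity trend, Benjamini-Hochberg over all tested genes, threshold 0.05). Fold changes on this scale understate the change of low genes. Within-library ratios used two-sided exact permutation tests (scipy). Fragments per library were estimated from the smallest step of FPKM times length over single-transcript genes of at least 2000 nt, so they are approximate. They assume that FPKM were scaled to each library's own depth, which is not stated. Lengths, GC content and locations came from GENCODE vM21 (GRCm38, the assembly mm10 names), with a length for 99.5% of tested genes; promoter windows came from RefSeq on GRCm38.p6. Named genes were the 10 factors, up to 4 called genes per direction of each list (or the 2 most abundant), the 3 genes most alike each tested factor, and identity checks; Ms4a1, Spi1, Fli1, Irf1, Irf5, Mef2a, Mef2d, Tcf3, 2310045N01Rik, Lyz2 and genes named at 0 or as examples were added after their values were seen. The factors, lists and tests were chosen with earlier results of these data known. Alternatives were other pseudocounts, filters, scalings and moderation, a replicate block, removal of length and GC trends, and leaving out each library. Some genes of the lists are counted but not reported here by name.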

Additional observations from a re-analysis of the deposited data

How the results depend on the processing

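Of 9087 tested genes 387 were called higher and 160 lower in IgG1 cells. Higher calls numbered 5 without the filter, 188 after quantile normalization, 177 after rescaling without Jchain, 3 without the intensity trend and 169 with length and GC trends removed. Lower calls numbered 9 without the filter, 393 after rescaling without Jchain, 5 without the intensity trend and 85 with the trends removed. Leaving out 1 library gave 78 to 394 higher and 30 to 251 lower. The median log2 fold change of all tested genes was -0.25 after rescaling and -0.05 as deposited. Higher calls were 70.7% of all calls as deposited, 31.1% with rescaling, 48.5% with quantile normalization and 80.6% with median centring. The cause was not tested.

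Mef2b was called in 13 of 17 alternatives. The number of factors called higher was 0 without the filter, without the intensity trend and with the trends removed, and 0 to 1 when 1 library was left out. Irf8 was negative in all 17 alternatives and called in 4, so that 1 factor was called lower with a pseudocount of 5, with a filter at 5 FPKM and after rescaling without Jchain, and 0 to 1 when 1 library was left out. Spib turned to 0.14 after quantile normalization and 0.15 without IgG1 library 3, within -0.52 to 0.15 over fits lacking 1 library. Foxo1 turned to -0.10 without IgM library 1 and -0.03 without IgG1 library 3, within -0.10 to 0.74. Spib and Id3 had no value at a filter of 5 FPKM. With a pseudocount of 0.1 the ratio of Bcl6 to Prdm1 differed by -0.02 and that of Bcl6 to Irf4 by -0.34, against 0.81 and 0.52 with 1.

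Replicate numbers are shared between the groups, but same-numbered libraries did not deviate together (r of -0.031 to 0.101, and 2 of 6 libraries correlated best with their own number). With a replicate block 432 genes were higher and 154 lower, and 1 factor higher and 0 lower. Levels under about 3 fragments (Pax5, Bach2 and most Bcl6 values) limit any comparison of those genes.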

Other observations

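Histone deacetylases that act with MEF2 factors or with Bcl6 corepressors were described by their values. Hdac5, which like Hdac9 binds MEF2 factors, averaged 14.2 FPKM in IgG1 and 31.2 FPKM in IgM cells (log2 fold change -1.11, limma adjusted p = 0.0591). Hdac3, the catalytic partner of the corepressors that Bcl6 recruits, averaged 70.4 FPKM in IgG1 and 42.2 FPKM in IgM cells (0.69, adjusted p = 0.0741). Hdac7 averaged 9.36 FPKM in IgG1 and 8.99 FPKM in IgM cells (0.05, adjusted p = 0.939).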
